A study of Mus musculus with 9 samples.

Results

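The transcripts described are the intronic long non-coding RNAs (lncRNAs) of β-TC6, an insulin-secreting mouse cell line that was derived from a β-cell tumour of transgenic mice. They were chosen as the rows of the deposited lncRNA table whose class is intronic, which are 998, less 2 transcripts that are not reported here. This left 996 of 15589 lncRNA transcripts, from 688 loci, a locus being the transcripts that share 1 gene identifier in the table. The 9 libraries form 3 groups of 3: untreated control cells, cells given palmitic acid and cells given stearic acid. Treatment lasted 24 h with 400 µmol/L of the acid and 1.3% bovine serum albumin. Whether control cells received albumin is not stated, so an effect of the acid and of albumin cannot be told apart in the comparisons with control. Both acids are saturated fatty acids, of which stearic acid has the longer chain. The labels do not say that the 3 libraries of a group came from separate cultures, so p-values measure the spread between these libraries, which may be technical.

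An intronic lncRNA lies within an intron of another gene, called here its host gene, and is spliced and transcribed as a unit of its own. Transcripts of this kind are usually present at low levels. Some are known in other systems to affect the splicing or transcription of the gene around them, and for most no function has been described.

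The deposited coordinates matched the class name, which itself describes position. The whole span of 986 of the 996 transcripts lay within 1 intron of a protein-coding transcript of GENCODE mouse release 21 (GRCm38, the same assembly as the mm10 of the deposited coordinates). The same was true of 0.743% of the 4306 antisense and 1.10% of the 10285 intergenic lncRNAs. As host, a coding gene of the opposite strand was preferred, and one that only overlapped was taken where none contained the transcript. The host gene so chosen was on the opposite strand for 994 transcripts, on the same strand for 1, and absent for 1. Without this preference, 989 lay inside a coding gene of the opposite strand and 9 inside one of the same strand. The intronic transcripts are therefore antisense in orientation, and GENCODE types the gene of 788 of them as antisense, of 80 as lincRNA and of 72 as processed transcript. Containment in 1 intron separates the class from the antisense class, and exon overlap differs only in degree. Of the 671 whose span, strand and exon number matched a GENCODE transcript, 123 (18.3%) overlapped a coding-gene exon of the opposite strand, in any isoform, against 70.3% of 1583 matched antisense transcripts. The libraries are strand-specific, but the strand setting of the counting was not given, so reads from an intronic transcript and from the unspliced RNA of its host cannot be told apart.

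**Figure D1:**
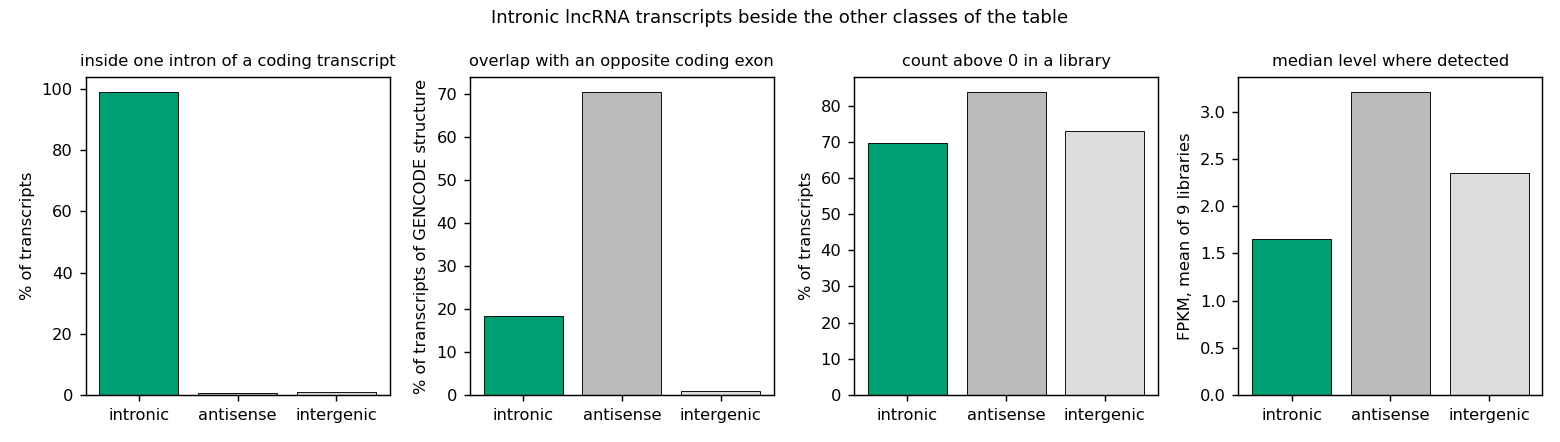
Bars give, for the intronic, antisense and intergenic lncRNAs of the table, the percentage inside 1 intron of a coding transcript, the percentage overlapping an opposite coding exon (of transcripts with a GENCODE structure), the percentage with a count above 0 in a library, and the median FPKM of detected transcripts. Intronic transcripts (986 of 996) fill the first panel and have the lowest bars of the 3 classes for detection (69.6%) and level (1.65 FPKM).

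Sequences are shown for 4 members whose loci responded to an acid and whose span, strand and exon number match a GENCODE transcript. The splice joins are those of the annotation, and reads across them were not examined. Each line reads 5′ to 3′ across the join of exon 1 (last 40 bases, lower case) and exon 2 (first 40 bases, capitals), from the GENCODE release 21 transcripts (GRCm38).
Dtnbos (TCONS_00055673, chr12:3752543-3762146, minus strand, in Dtnb): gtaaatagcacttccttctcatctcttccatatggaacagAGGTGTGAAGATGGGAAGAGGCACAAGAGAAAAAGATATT
Kank4os (TCONS_00176958, chr4:98793768-98798900, plus strand, in Kank4): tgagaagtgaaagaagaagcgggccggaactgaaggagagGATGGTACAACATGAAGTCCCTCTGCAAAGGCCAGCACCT
Gm16028 (TCONS_00002587, chr1:85246851-85255465, plus strand, in C130026I21Rik): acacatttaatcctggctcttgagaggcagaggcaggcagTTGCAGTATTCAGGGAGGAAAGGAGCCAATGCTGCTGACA
Rptoros (TCONS_00047194, chr11:119820812-119834365, minus strand, in Rptor): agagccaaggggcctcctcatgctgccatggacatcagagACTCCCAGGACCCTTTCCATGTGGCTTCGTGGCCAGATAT
The introns removed at these joins are 7845, 2126, 7725 and 8318 bp long, in the same order. The mature transcripts are 1662, 2251, 890 and 1174 bases long with a GC content of 48.7%, 45.9%, 50.0% and 47.8%. The exons of Gm16028 overlap 286 bases of opposite coding-gene exons, and those of the other 3 overlap none. Over all matched transcripts the median GC content was 48.3% for the intronic class, 49.2% for the antisense class and 45.5% for the intergenic class.

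Promoters are shown for 2 loci that moved in opposite directions with both acids and in which the deposited 5′ end of a transcript is the RefSeq start site. The first 250 bases, in lower case, precede the start and the last 50, in capitals, follow it (RefSeq, GRCm38.p6).
4933401H06Rik (TCONS_00167286, chr3:135840220-135840519, minus strand, in Slc39a8): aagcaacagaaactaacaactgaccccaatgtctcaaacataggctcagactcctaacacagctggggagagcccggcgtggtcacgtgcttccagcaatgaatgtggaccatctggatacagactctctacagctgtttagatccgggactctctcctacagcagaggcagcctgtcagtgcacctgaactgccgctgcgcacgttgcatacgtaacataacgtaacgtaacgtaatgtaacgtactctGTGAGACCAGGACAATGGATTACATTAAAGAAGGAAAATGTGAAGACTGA
Gm10804 (TCONS_00139242, chr2:93452569-93452868, plus strand, in Cd82): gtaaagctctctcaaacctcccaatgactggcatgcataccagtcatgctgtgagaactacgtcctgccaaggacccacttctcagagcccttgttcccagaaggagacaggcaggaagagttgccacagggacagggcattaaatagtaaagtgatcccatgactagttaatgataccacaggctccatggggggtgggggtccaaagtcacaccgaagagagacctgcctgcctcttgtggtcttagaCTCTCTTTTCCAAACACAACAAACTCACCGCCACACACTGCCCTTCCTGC
TCONS_00167285, which held most of the 4933401H06Rik counts, begins 1658 bp downstream of the start shown for that locus. The GC content of these windows is 48.7% and 52.0%. RefSeq promoters were found for 21 of 66 members looked up.

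Intronic transcripts mostly had few exons. Of the 996, 573 (57.5%) had 2 exons, 255 had 3, 98 had 4, and 2 had 8, against 48.6% with 2 exons in the antisense class and 50.9% in the intergenic class. The median genomic span was 4492.5 bp, shorter than in the antisense class (9352 bp) and the intergenic class (5532 bp). The median length of the spliced transcript, where a GENCODE structure gives it, was 678 bases, against 778 in the antisense class and 668 in the intergenic class. The transcripts with 8 exons were Gm13630, in the sodium channel gene Scn1a, and 4930419G24Rik, in Pex5l, whose product regulates pacemaker channels of neurons, and neither had a count in any library. The widest span, 125629 bp, was that of Gm15398, in the protocadherin gene Pcdh15, which also had no count. Host genes numbered 599, and those with the most intronic transcripts were the cadherin gene Cdh8 (10), the RNA-binding protein gene Celf2 (8) and Prdm11 (8), whose product belongs to a family of zinc-finger and methyltransferase-like proteins.

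The table marks 152 members as known lncRNAs and the other 844 as not known, yet all 996 carry an Ensembl identifier, and 741 of the 844 belong to genes that GENCODE types as antisense. The identifier is that of a gene, which GENCODE types as protein-coding for 27 members, and for 7 it is not in the release. Of the 844, 579 matched a GENCODE transcript in span, strand and exon number. For those, lack of the known mark does not mean absence from annotation. Chromosome 2 held the most members (138), followed by chromosomes 11 (108), 5 (94) and 1 (82). As a share of all lncRNAs of a chromosome, intronic transcripts were most frequent on chromosome 11 (11.2%) and chromosome 2 (10.6%) and least frequent on chromosomes X (1.46%) and Y (0.529%). Chromosome Y held 4 members, and none was detected.

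Totals over all lncRNAs ranged from 1537431 to 2870275 counts per library, the lowest in stearic acid replicate 2. The most abundant lncRNA, which is not a member, took 28.7% of the counts of this library and 16.4% to 24.97% of those of the other 8. The limit of 3 counts used below as a floor came to between 1.10 and 2.02 CPM, the unit of counts after scaling to library size by the trimmed mean of M values, and covers counting error only. Markers of cell identity could not be checked, since the table holds lncRNAs alone.

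Of the 996 members, 693 (69.6%) had a count above 0 in a library, 221 in all 9 libraries, and 303 in none. Between 393 and 451 were detected per library. Detection in any library was more frequent in the antisense class (83.7%) and the intergenic class (73.0%). Detection in all 9 libraries reached 22.2% of the intronic, 32.7% of the antisense and 21.5% of the intergenic class. The median FPKM (the authors' level per transcript length, which by its values is relative to the lncRNA reads of the table) of detected transcripts, as a mean of 9 libraries, was 1.65 for the intronic class, 3.21 for the antisense class and 2.35 for the intergenic class. An average above 1 FPKM was reached by 415 members, above 10 by 78 and above 100 by 6. Known members were detected more often (117 of 152, 77.0%) than the others (576 of 844, 68.2%) and had a median of 2.35 FPKM against 1.49. Detection was 73.5% among members with 2 exons, 66.7% with 3, 62.2% with 4, 63.8% with 5 and 58.8% with 6, and 1 of 4 with 7. These shares are descriptions of single table rows, many of which share a locus and its reads.

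Counts were concentrated in few transcripts. Gm26565, in the RNA-binding protein gene Celf2, and Gm23137, a locus typed as small nuclear RNA in the germ-cell bridge gene Tex14, together held between 69.9% and 83.1% of all member counts in each library. TCONS_00135680 of Gm26565 measured 9936, 12871 and 13523 CPM in the control libraries, 11772, 12211 and 13605 CPM with palmitic acid and 9229, 22713 and 11293 CPM with stearic acid. The groups overlapped, and stearic acid replicate 2 was the highest of the 9. Its edgeR log2 change was 0.05 ± 0.30 (SE) with palmitic acid and 0.25 ± 0.30 with stearic acid, with adjusted p of 0.989 and 0.793. TCONS_00044749 of Gm23137 averaged 7830.4 ± 1985 CPM in control, 7258 ± 295 in palmitic acid libraries and 6650.1 ± 720.0 in stearic acid libraries (SD, n = 3), and did not pass either test (adjusted p of 0.909 and 0.601). Their FPKM values, 341417 and 66231, are inflated by length, since the lengths that the counts and FPKM imply are 44 and 118 bases. Small nuclear RNA genes also have near-identical copies in the genome, so the share of reads assigned to Gm23137 is uncertain.

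The next 8 transcripts by CPM were far lower, with means between 174 and 358 CPM. Per length, Gm22265, also typed as small nuclear RNA, in the Hedgehog acyltransferase gene Hhat, had the highest mean of these (138 FPKM), followed by Nespas, the antisense RNA of the imprinted Gnas locus (85.1 FPKM), and Gm11418, in the acid-sensing ion channel gene Asic2 (61.8 FPKM). Then came 2700016F22Rik, in the ubiquitin ligase gene Ubr4 (53.3 FPKM), Gm26869, in the zinc-finger gene Zfp971 (52.6 FPKM), Gm15681, in Cdh8 (39.5 FPKM for TCONS_00249726), 6430503K07Rik, in the islet transcription factor gene Nkx2-2 (33.5 FPKM for TCONS_00141103), and Gm16035, in the adhesion molecule gene Sdk1 (16.1 FPKM). Exons of 2700016F22Rik overlap 1956 bases of opposite coding exons, so part of its reads could belong to Ubr4. None of the 10 transcripts passed the test of single transcripts with either acid. The loci of Gm22265, Gm11418 and Gm15681 did pass the locus test with an acid (below), and that of Gm22265 holds this transcript alone.

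**Figure D2:**
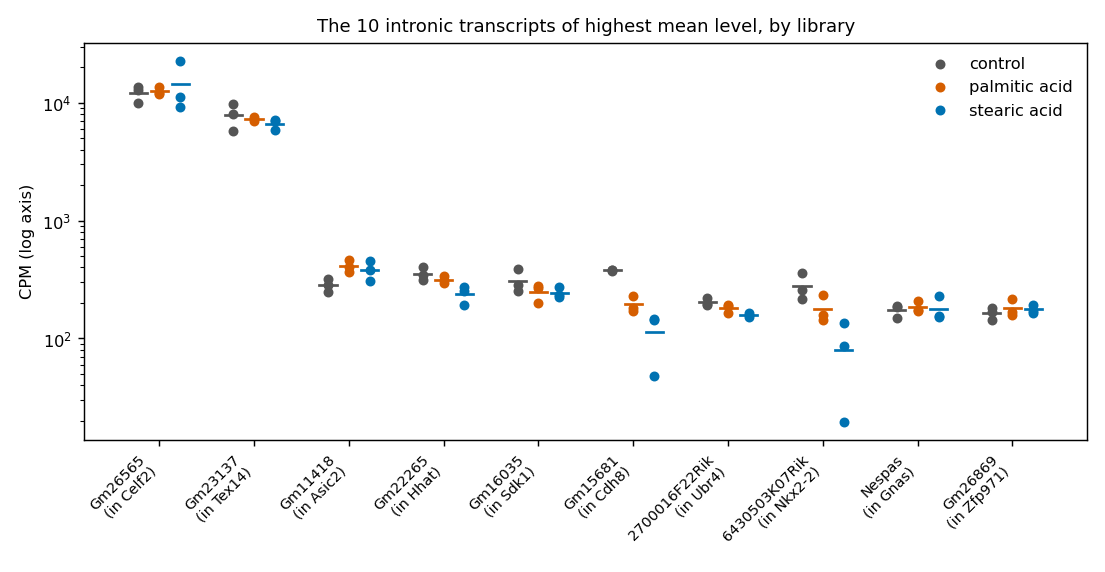
Points are the CPM of single libraries on a log axis for the 10 intronic transcripts of highest mean CPM, in 3 groups, and lines are group means (n = 3). Gm26565 and Gm23137 lie between 5784 and 22713 CPM, and the other 8 transcripts lie at or below 459 CPM.

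The summed share of the intronic class in all lncRNA counts was 2.67% ± 0.133 in control, 2.47% ± 0.0300 under palmitic acid and 2.72% ± 0.645 under stearic acid (SD, n = 3). With stearic acid it was 2.27%, 3.46% and 2.43% in the 3 libraries, and the high value was again that of replicate 2. Without the 2 most abundant transcripts the share was 0.543% to 0.770% in all 9 libraries, and replicate 2 of stearic acid, at 0.584%, lay inside that range.

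The comparison of palmitic acid with control asked which intronic lncRNAs respond to it. Counts were summed per locus, and 205 of the 687 loci that could be counted passed the filter on low counts. Of these, 13 passed edgeR's quasi-likelihood test, 7 higher and 6 lower. This is 6.34% of the tested loci, where 5.56% of all 3039 tested lncRNA loci passed (3.69% higher, 1.88% lower), so the share is close to the background. At an unadjusted p under 0.05 the counts were 38 loci (18.5%, against 19.7% of all loci). The median log2 change was −0.10 over the 205 loci and −0.02 over all loci. All 13 had palmitic acid libraries that did not overlap the control libraries, as did 24.9% of the 205 tested loci. Of the 13, 6 held intronic transcripts alone, out of 143 tested loci of that kind. The other called loci also held antisense or intergenic transcripts. For those, the counts of the intronic transcripts alone were also tested in the locus fit. Where that count is a single transcript, the transcript fit described further on gives a second test of it, with a larger estimated spread and more features tested, and both are given. In bulk RNA, less RNA per cell and fewer cells that carry it cannot be told apart.

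Stearic acid was compared with control in the same way, and 26 of the 205 loci passed, 12 higher and 14 lower. This is 12.7%, against 11.8% of all tested loci (6.38% higher, 5.40% lower). At an unadjusted p under 0.05 there were 51 (24.9%, against 25.1%). The absolute log2 changes of the 26 called loci ranged from 0.51 to 3.11, and in 25 of the 26 the stearic acid libraries did not overlap the control libraries, as in 28.3% of the 205 tested loci. Of the 26, 15 held intronic transcripts alone, out of 143 tested loci of that kind. In 6 of the 26 the intronic transcripts had under 50% of the locus counts. Both acids were compared with the same control libraries, so values for the 2 acids are given side by side below, without a measure of their likeness.

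**Figure D3:**
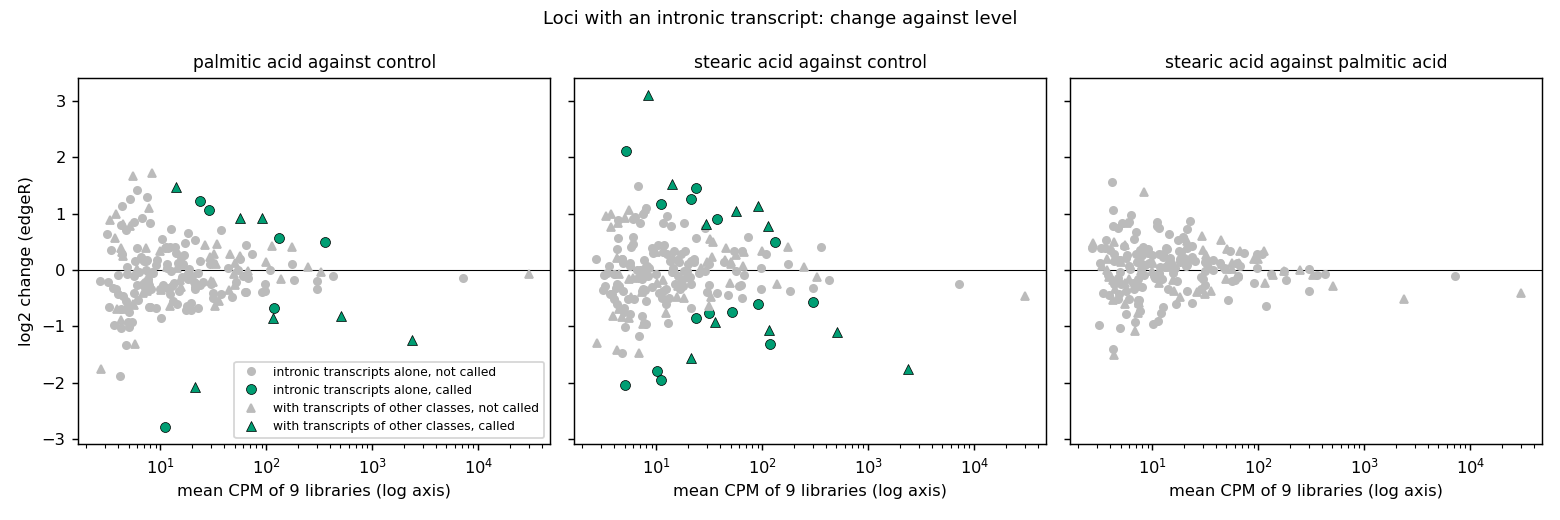
Each point is 1 of the 205 tested loci with an intronic transcript, with its mean CPM on a log axis against its edgeR log2 change, in 3 comparisons. Filled green points passed the test, 13 in the palmitic acid panel, 26 in the stearic acid panel and 0 in the panel of stearic against palmitic acid. Circles mark loci of intronic transcripts alone and triangles loci that hold other classes too.

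The largest decrease with palmitic acid was in 4933401H06Rik (XLOC_096462), within Slc39a8, the gene of a zinc and manganese importer. The locus measured 23.7, 23.9 and 23.8 CPM in control, 4.76, 1.53 and 3.83 CPM with palmitic acid and 5.23, 6.03 and 7.00 CPM with stearic acid. All 6 treated libraries lay far below the control libraries. It fell 7.05-fold with palmitic acid (log2 change −2.80 ± 0.40, edgeR adjusted p = 5.01e-05) and 3.91-fold with stearic acid (−1.95 ± 0.38, adjusted p = 0.00118). Almost all of this came from TCONS_00167285 (chr3:135832060-135838611), which fell from 21.2 ± 1.01 to 3.27 ± 1.64 CPM with palmitic acid (SD, n = 3, edgeR adjusted p = 0.0483). In the fit of single transcripts it was the 1 intronic transcript of 226 tested to pass with palmitic acid, and its call was lost without any one of the 6 libraries compared (adjusted p of 0.0899 to 0.173). TCONS_00167286, which begins at the promoter shown above, had at most 3.35 CPM in any library, and TCONS_00167287, which begins there too, had no count.

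Gm15681 (XLOC_143717), within Cdh8, the gene of a cell adhesion molecule of neurons, was the most abundant of the responding loci that are mainly intronic. It holds 9 intronic transcripts among 14, and these made up 82.7% of its counts. The locus measured 775, 699 and 774 CPM in control, 401, 465 and 405 CPM with palmitic acid and 369, 308 and 369 CPM with stearic acid. It fell 1.77-fold with palmitic acid (log2 change −0.82 ± 0.13, edgeR adjusted p = 0.000216) and 2.15-fold with stearic acid (−1.10 ± 0.13, adjusted p = 3.48e-06). GENCODE types the gene as a processed pseudogene, so reads could be shared with its parent gene.

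The isoforms of Gm15681 did not all behave alike. TCONS_00249716 (chr8:99126907-99145710, 3 exons) had 120.3, 124 and 122 CPM in control, 70.9, 76.7 and 84.9 CPM with palmitic acid and 71.5, 72.9 and 79.8 CPM with stearic acid. TCONS_00249717, which has the same ends but 2 exons, had 49.3, 48.8 and 53.02 CPM, then 26.7, 26.1 and 28.2 CPM, and 25.1, 18.2 and 19.8 CPM in the same order. Both passed with stearic acid (log2 changes −0.70 ± 0.13 and −1.25 ± 0.19, edgeR adjusted p of 0.0457 and 0.0179), and with palmitic acid both had an adjusted p of 0.0917. The stearic acid call of TCONS_00249716 was lost without any one of the 6 libraries (up to 0.151), and that of TCONS_00249717 without any but stearic acid replicate 1 (up to 0.0816). The most abundant isoform, TCONS_00249726, averaged 381 ± 4.52, 195 ± 31.6 and 113 ± 56.4 CPM (SD, n = 3) and had an adjusted p of 0.0578 with stearic acid, where replicate 2 measured 47.9 CPM and the others 147 and 144 CPM. In replicate 2 the isoform TCONS_00249725 was high instead, at 69.5 CPM, where no other library exceeded 23.2 CPM.

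Dtnbos (XLOC_030114), within the dystrobrevin beta gene Dtnb, measured 186, 167 and 163 CPM in control, 109.6, 93.9 and 82.5 CPM with palmitic acid and 82.3, 76.4 and 85.6 CPM with stearic acid. The treated libraries did not overlap the control libraries. The fall was 1.80-fold with palmitic acid (log2 change −0.85 ± 0.15, edgeR adjusted p = 0.000789) and 2.11-fold with stearic acid (−1.07 ± 0.15, adjusted p = 3.87e-05). Intronic transcripts made up 83.7% of the counts. TCONS_00055673, whose splice join is printed above, passed on its own with stearic acid (69.7 ± 8.66 to 31.4 ± 6.89 CPM, log2 change −1.16 ± 0.22, edgeR adjusted p = 0.0478), a call lost without any one of the 6 libraries (up to 0.160).

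6330403N20Rik (XLOC_135708), within Prc1, the gene of a protein that bundles microtubules when cells divide, measured 181, 187 and 159 CPM in control, 109.9, 119.9 and 98.2 CPM with palmitic acid and 76.1, 65.0 and 69.1 CPM with stearic acid. Control was highest, palmitic acid lower and stearic acid lowest, with no overlap between any 2 groups. The fall was 1.61-fold with palmitic acid (log2 change −0.68 ± 0.15, edgeR adjusted p = 0.00548) and 2.51-fold with stearic acid (−1.32 ± 0.15, adjusted p = 2.19e-06). No single isoform passed the test. TCONS_00237660 had 53.2, 2.93 and 120.4 CPM in the 3 control libraries, while TCONS_00237662 had 81.0, 158 and 0 CPM in the same libraries. These isoforms have the same ends (chr7:80294602-80300265) and 2 exons each, and in every library except control replicate 1 one of the pair was below 3 CPM. Their spread in control was 58.9 and 78.9 CPM (SD, n = 3), against 14.7 CPM for the locus, and their adjusted p against control ranged from 0.642 to 0.989.

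**Figure D4:**
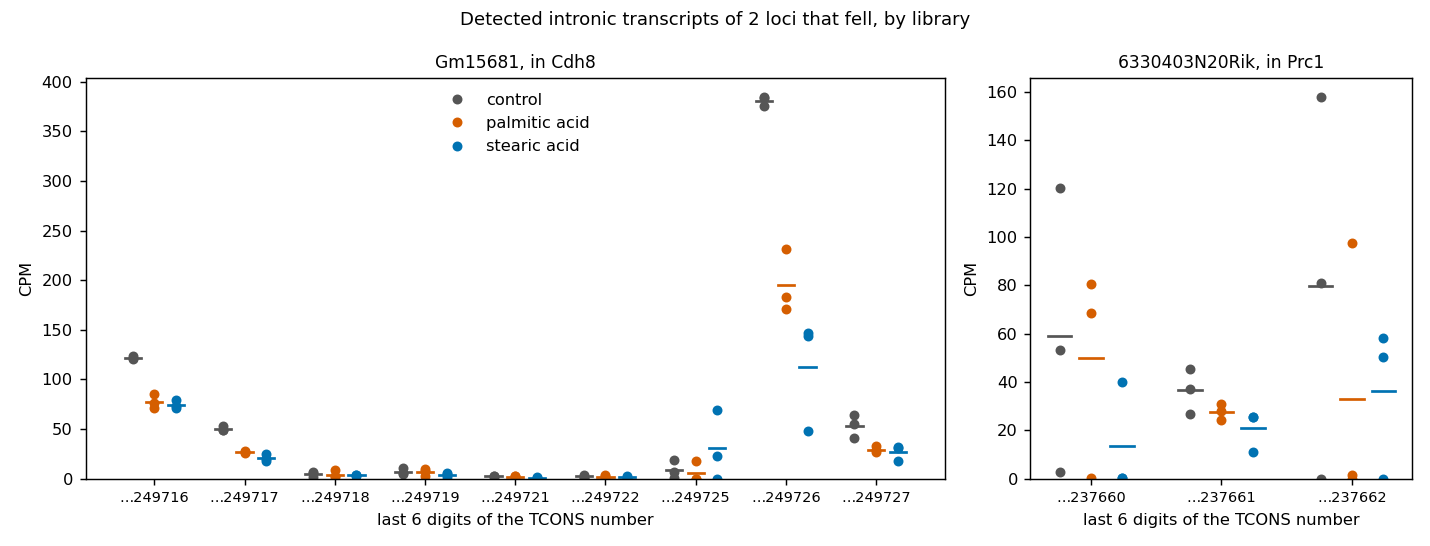
Points are the CPM of single libraries for the detected intronic transcripts of Gm15681 (9 transcripts) and 6330403N20Rik (3 transcripts), and lines are group means (n = 3). In Gm15681 the control points of TCONS_00249716, TCONS_00249717 and TCONS_00249726 lie above all treated points, while in 6330403N20Rik the control libraries of TCONS_00237660 spread from 2.93 to 120.4 CPM.

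In the other 2 loci that fell with palmitic acid the intronic transcript was a minor part. Gm15991 (XLOC_143377), within Psd3, the gene of an exchange factor for ARF GTPases, measured 36.8, 42.4 and 42.4 CPM in control, 9.16, 8.78 and 10.6 CPM with palmitic acid and 15.2, 8.71 and 16.1 CPM with stearic acid. It fell 4.25-fold and 3.04-fold (log2 changes −2.09 ± 0.27 and −1.57 ± 0.27, edgeR adjusted p of 1.80e-05 and 0.000336). The intronic transcript held 22.5% of the counts. Tested alone in the locus fit it passed with palmitic acid (log2 change −2.94, adjusted p = 0.0237) but not with stearic acid (−0.82, adjusted p = 0.489). In the transcript fit the same transcript, TCONS_00248343, passed with neither (adjusted p of 0.304 and 0.787).

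Igf2os (XLOC_134310), within the growth factor gene Igf2, measured 3810.0, 4548 and 3944 CPM in control, 1729, 1605 and 1846 CPM with palmitic acid and 1104, 1427 and 1112 CPM with stearic acid, but the intronic transcript TCONS_00233739 held only 0.450% of these counts. That transcript (chr7:142665138-142666092) had 17.7, 15.6 and 26.1 CPM in control, 8.17, 5.06 and 8.11 CPM with palmitic acid and 6.15, 2.02 and 2.89 CPM with stearic acid. Taken alone in the locus fit it passed in both comparisons (log2 changes −1.51 and −2.39, edgeR adjusted p of 0.0231 and 0.000725). In the transcript fit it passed in neither (−1.48 and −2.39, edgeR adjusted p of 0.240 and 0.0575).

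Among the loci that rose with palmitic acid, Pard3bos1 (XLOC_002558), within the cell polarity gene Pard3b, measured 14.0, 9.26 and 11.5 CPM in control, 25.7, 30.2 and 25.5 CPM with palmitic acid and 36.1, 28.2 and 30.9 CPM with stearic acid. It rose 2.34-fold (log2 change 1.22 ± 0.26, edgeR adjusted p = 0.00493) and 2.73-fold (1.45 ± 0.26, adjusted p = 0.000581). Its 4-exon transcript TCONS_00008230 (chr1:61770734-61853501) was the only intronic transcript to pass as higher with stearic acid (7.96 ± 2.71 to 25.9 ± 2.69 CPM, log2 change 1.70 ± 0.30, edgeR adjusted p = 0.0402), a call that held only without control replicate 1 and was lost without any other library (up to 0.133).

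Gm10804 (XLOC_083626), within the tetraspanin gene Cd82, measured 43.5, 28.8 and 30.8 CPM in control, 78.1, 62.6 and 54.8 CPM with palmitic acid and 68.5, 69.7 and 75.3 CPM with stearic acid. The rise was 1.90-fold (log2 change 0.93 ± 0.19, edgeR adjusted p = 0.00412) and 2.07-fold (1.05 ± 0.20, adjusted p = 0.000736). Its transcripts TCONS_00139242 and TCONS_00139246 are among the known lncRNAs and neither passed alone.

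Gm16028 lies within C130026I21Rik and gives its name to 2 loci of the table with overlapping spans on the same strand, so their reads may have been split between them. XLOC_000784 measured 43.0, 58.5 and 58.0 CPM in control, 109, 92.8 and 103 CPM with palmitic acid and 131, 113 and 107 CPM with stearic acid. It rose 1.91-fold and 2.20-fold (log2 changes 0.93 ± 0.17 and 1.13 ± 0.17, edgeR adjusted p of 0.000856 and 5.49e-05), and the intronic transcript, with 43.1% of the counts, passed alone in the locus fit in both comparisons (adjusted p of 0.00338 and 0.00209). In the transcript fit that transcript, TCONS_00002586, passed in neither (adjusted p of 0.0959 and 0.0597). XLOC_000779, a single 2-exon transcript, measured 27.6, 15.1 and 11.5 CPM in control, 36.3, 35.1 and 41.2 CPM with palmitic acid and 31.9, 32.2 and 25.9 CPM with stearic acid. It passed with palmitic acid (log2 change 1.07 ± 0.27, edgeR adjusted p = 0.0153) and not with stearic acid (0.74 ± 0.28, adjusted p = 0.0846). Its call with palmitic acid was lost without control replicate 2, control replicate 3 or palmitic acid replicate 3, with an adjusted p of up to 0.118. In the transcript fit its transcript, TCONS_00002587, passed with neither acid (edgeR adjusted p of 0.207 and 0.308).

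A locus without a gene symbol (XLOC_133376), within the tyrosine phosphatase gene Ptpn5, rose from 5.80, 6.34 and 6.69 CPM in control to 19.8, 19.5 and 13.2 CPM with palmitic acid and 15.7, 19.4 and 19.8 CPM with stearic acid (log2 changes 1.47 ± 0.33 and 1.53 ± 0.34, edgeR adjusted p of 0.00798 and 0.00352). Its intronic transcript TCONS_00230465 held 65.3% of the counts and alone in the locus fit passed with palmitic acid (adjusted p = 0.0454) but not with stearic acid (adjusted p = 0.115). In the transcript fit it passed with neither (adjusted p of 0.182 and 0.233).

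The remaining increases were small. Kank4os (XLOC_104220), within the cytoskeletal adaptor gene Kank4, measured 100.1, 113 and 90.3 CPM in control, 155, 132 and 163 CPM with palmitic acid and 153, 117 and 159 CPM with stearic acid (log2 changes 0.57 ± 0.16 and 0.51 ± 0.16, edgeR adjusted p of 0.0337 and 0.0399). The stearic acid call of Kank4os held without stearic acid replicate 2 and was lost without any of the other 5 libraries. Gm11418 (XLOC_021583), within Asic2, measured 252, 319 and 286 CPM in control, 453, 399 and 365 CPM with palmitic acid and 313, 449.8 and 379 CPM with stearic acid. It passed with palmitic acid (log2 change 0.51 ± 0.15, edgeR adjusted p = 0.0469) and not with stearic acid (0.41 ± 0.15, adjusted p = 0.0783). With palmitic acid, leaving out any of the 6 libraries compared ended the Gm11418 call (adjusted p of 0.0565 to 0.212), and leaving out control replicate 1, control replicate 3, palmitic acid replicate 1 or palmitic acid replicate 3 ended that of Kank4os (up to 0.177).

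**Figure D5:**
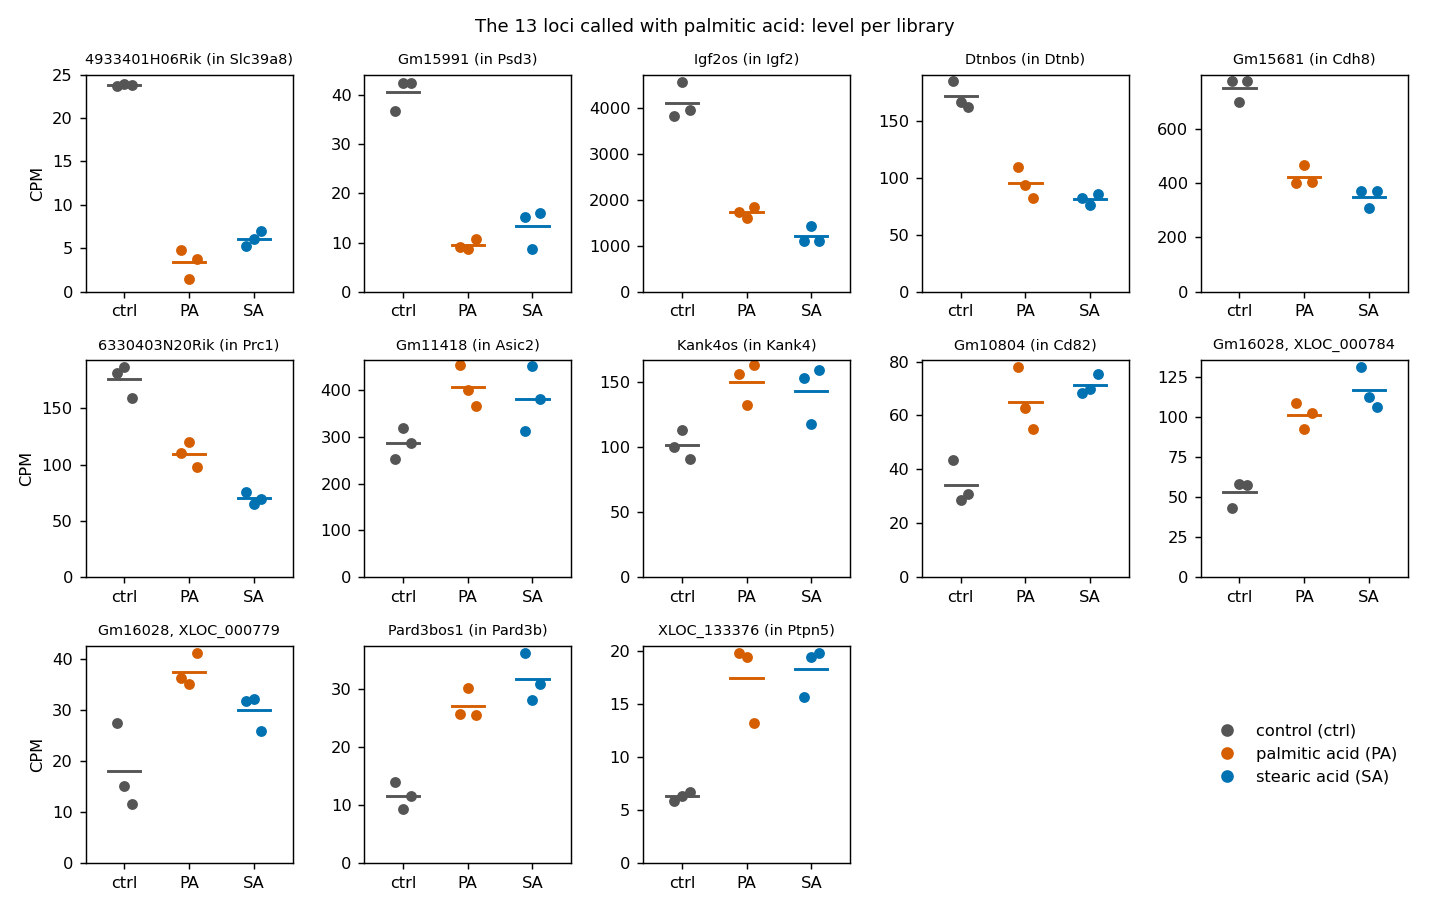
Points are the CPM of single libraries, and lines the group means (n = 3), for the 13 loci called with palmitic acid, in order of log2 change, with axes from 0. PA is palmitic acid and SA stearic acid. In all 13 the palmitic acid points lie on one side of the control points. The Igf2os, Gm15991 and Gm16028 (XLOC_000784) panels show loci whose counts are mostly not from intronic transcripts.

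Loci named for stearic acid that were not called with palmitic acid follow, and whether the 2 acids differed was tested separately (below). Gm11816 (XLOC_105196), within Clvs1, the gene of a lipid-binding protein of clathrin-coated vesicles, measured 17.4, 8.77 and 13.4 CPM in control, 15.4, 24.0 and 17.9 CPM with palmitic acid and 30.9, 38.2 and 26.8 CPM with stearic acid. It rose 2.42-fold with stearic acid (log2 change 1.26 ± 0.29, adjusted p of the edgeR test = 0.00539) and had an adjusted p of 0.340 with palmitic acid (0.53 ± 0.30). Its counts came from TCONS_00180689, which did not pass with stearic acid in the transcript fit (edgeR adjusted p = 0.0954). The neighbouring Gm11817 (XLOC_105197), in the same host, measured 1.45, 0.975 and 3.34 CPM in control, 4.398, 7.25 and 2.98 CPM with palmitic acid and 14.7, 6.70 and 4.94 CPM with stearic acid. The control values are at or near the floor of 3 counts, and the log2 change of 2.11 had a 95% interval from 0.76 to 3.47 (edgeR adjusted p = 0.0368), a call lost without control replicate 1, control replicate 2 or stearic acid replicate 1 (up to 0.280).

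Gm26603 (XLOC_085136), a known lncRNA within the formin gene Fmnl2, measured 9.19, 4.39 and 8.17 CPM in control, 10.6, 10.7 and 7.23 CPM with palmitic acid and 17.6, 14.1 and 17.3 CPM with stearic acid (log2 change 1.16 ± 0.37, adjusted p of the edgeR test = 0.0434). The call was lost without any one of the 6 libraries compared, with an adjusted p from 0.0505 to 0.166. In the transcript fit its single transcript, TCONS_00145554, did not pass (edgeR adjusted p = 0.188). The largest change by size, in Gm11716 (XLOC_022048) within the phosphatidylinositol transfer protein gene Pitpnc1, was not that of an intronic transcript. The locus had 1.93, 0.975 and 2.60 CPM in control, 4.03, 9.16 and 5.95 CPM with palmitic acid and 20.4, 16.1 and 13.6 CPM with stearic acid (log2 change 3.11 ± 0.51, adjusted p of the edgeR test = 0.000212), but its intronic transcript TCONS_00039989 held 7.42% of the counts over all libraries and had no count in any stearic acid library.

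Rptoros (XLOC_023901), within Rptor, the gene of the mTOR complex scaffold raptor, measured 18.4, 18.5 and 13.4 CPM in control, 7.33, 10.3 and 10.2 CPM with palmitic acid and 1.90, 2.01 and 9.47 CPM with stearic acid. It fell with stearic acid (log2 change −1.80 ± 0.47, adjusted p of the edgeR test = 0.0134), where 2 libraries were near the floor and replicate 3 was close to the palmitic acid level. The call was lost without control replicate 2 or stearic acid replicate 1 (up to 0.0664). Its single transcript, TCONS_00047194, did not pass in the transcript fit (edgeR adjusted p = 0.193). A transcript opposite to the mitotic kinesin gene Kif18b, listed under the name of its host (XLOC_021966), measured 11.1, 7.31 and 7.80 CPM in control, 5.13, 2.67 and 5.10 CPM with palmitic acid and 1.43, 0.670 and 3.70 CPM with stearic acid (log2 change −2.05 ± 0.63, adjusted p of the edgeR test = 0.0356), and only leaving out stearic acid replicate 3 kept the call (adjusted p up to 0.126 without the others). In the transcript fit the same transcript, TCONS_00039707, did not pass (edgeR adjusted p = 0.188).

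The other 9 loci called with stearic acid had log2 changes between −0.93 and 0.90 and lie within Smtn, Cnpy3, Chsy1, Ip6k1, Pitpnm2, Hhat, Rbm38, Nav1 and Bcl3. The Bcl3 locus, Gm16174, was the one whose stearic acid and control libraries overlapped. In Gm11947 (XLOC_020648), in the smoothelin gene Smtn, the intronic transcript had no counts, so its change (−0.93 ± 0.21) belongs to other classes of transcript. In Gm4793 (XLOC_001299), in Nav1, intronic transcripts held 36.1% of the counts and did not pass alone in the locus fit (edgeR adjusted p = 0.287). Of 6 fits without 1 library, the Chsy1 locus passed in 1. The Cnpy3, Pitpnm2, Nav1 and Bcl3 loci passed in 2, that of Ip6k1 in 4, and those of Smtn and Rbm38 in 6. Gm22265 (XLOC_001965), in Hhat, measured 318, 347 and 405 CPM in control, 309.7, 288 and 339.6 CPM with palmitic acid and 277, 190.4 and 252 CPM with stearic acid (−0.57 ± 0.15, edgeR adjusted p = 0.0142). That call was lost without control replicate 3, and its single transcript did not pass in the transcript fit. Of the 26 calls, 14 passed in all 6 fits that left out 1 library, against 10 of the 13 with palmitic acid.

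At the level of single transcripts, 226 of the 996 members passed the filter, among 4426 tested lncRNA transcripts. With palmitic acid 1 passed and it was lower (0.442%, against a background of 0.407%, and 0.113% for lower calls). With stearic acid 4 passed, 1 higher and 3 lower (1.77%, against 1.42%, of which 0.813% higher and 0.61% lower). With scaling by library size alone, the stearic acid count was 1, and it was lower. Fits that left out 1 library called 0 transcripts for palmitic acid and 0 or 1 for stearic acid. At an unadjusted p under 0.05, 26 transcripts differed with palmitic acid (11.5%, against 11.2% of all tested) and 39 with stearic acid (17.3%, against 15.3%). Closest to the threshold without passing were, with palmitic acid, TCONS_00249716 and TCONS_00249717, then Gm16028 (TCONS_00002586, log2 change 1.12, edgeR adjusted p = 0.0959) and Pard3bos1 (TCONS_00008230, 1.33, adjusted p = 0.113), and with stearic acid 4933401H06Rik (TCONS_00167285, −2.17, adjusted p = 0.0529).

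The authors' deposited tables, made with their own fit, list 4 members among 81 transcripts for palmitic acid, 10 among 189 for stearic acid and 0 among 17 for stearic against palmitic acid. In the authors' deposited table for palmitic acid, 4933401H06Rik (TCONS_00167285) has a log2 change of −1.996 and an adjusted p of 1.86e-05. Some members that did not pass the transcript fit here are listed by the authors. Their adjusted p for Igf2os (TCONS_00233739) is 0.0305 with palmitic acid and 0.0020 with stearic acid. For Gm16028 (TCONS_00002586) it is 0.00575 and 0.00932. They also list Pard3bos1 (TCONS_00008230) for palmitic acid (0.0441) and Gm11816 (TCONS_00180689) for stearic acid (0.0242). The authors' deposited table for stearic acid also holds 2 members whose loci were not called here, Gm16045, in the septin gene Sept9 (−2.11), and A830011K09Rik, in Lmo3 (−1.98).

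Stearic acid was compared with palmitic acid directly to ask whether the longer acid acts differently on these transcripts, 1 pair of compounds at the same dose and time. None of the 205 loci and none of the 226 transcripts passed edgeR's test, where 0.0987% of all tested loci (0.0658% higher, 0.0329% lower) and 0 of all tested transcripts did. At an unadjusted p under 0.05, 18 loci (8.78%, against 7.37% of all loci) and 8 transcripts (3.54%, against 4.88%) differed. The DESeq2 Wald test called 0 transcripts and 1 locus, Igf2os (XLOC_134310). The 5 loci with the smallest p had adjusted p from 0.188 to 0.549. 6330403N20Rik was 1.56-fold lower with stearic acid (log2 difference −0.64, 95% interval −0.96 to −0.32) and Igf2os 1.42-fold lower (−0.51, −0.77 to −0.24), with most of the Igf2os counts outside its intronic transcript. D730045A05Rik (XLOC_072961), in the kinase gene Mapk4, was higher with stearic acid (0.87, 0.34 to 1.41), as was the Gm11716 locus (1.38, 0.49 to 2.27), and Gm38134 (XLOC_153242), in the inositol phosphate kinase gene Ip6k1, was lower (−0.53, −0.94 to −0.11). Without stearic acid replicate 2, the Igf2os locus passed (adjusted p = 0.00190), and the other 4 did not in any fit that left out a library. The 5 transcripts with the smallest p all had an edgeR adjusted p of 0.956. Of these, TCONS_00110374 (in Cnpy3, −0.59), Gm29123 (TCONS_00267301, in Poc1a, −1.43), Gm22265 (TCONS_00006380, −0.40) and Gm38134 (TCONS_00267606, −0.54) had lower values with stearic acid, and Gm15556 (TCONS_00110497, in Foxp4, 0.72) higher ones.

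A missed threshold does not show that the acids act alike, and the intervals of the difference give its possible size. For 4933401H06Rik the log2 difference was 0.85 (−0.08 to 1.77), for Gm15681 −0.28 (−0.55 to −0.01), for Dtnbos −0.23 (−0.55 to 0.10), for Pard3bos1 0.23 (−0.26 to 0.73) and for Gm10804 0.13 (−0.26 to 0.51). For the Clvs1 locus Gm11816 it was 0.73 (0.15 to 1.31), with an adjusted p of 0.549.

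Host genes were also grouped by function in 15 lists. Of 31 β-cell genes, 4 hosted intronic transcripts, 8 in all, of which 6, within Nkx2-2 and Pax6, passed the filter and none the test with either acid. 6430503K07Rik (XLOC_084114), in Nkx2-2, a transcription factor gene needed for β cells to form, measured 472, 444 and 454 CPM in control, 429, 425 and 422 CPM with palmitic acid and 406, 418 and 389 CPM with stearic acid (log2 changes −0.10 ± 0.12 and −0.18 ± 0.12, edgeR adjusted p of 0.709 and 0.411). Its isoforms spread widely around this even sum. TCONS_00141103 averaged 279 ± 72.4 CPM in control and 80.2 ± 58.0 with stearic acid, while TCONS_00141104, with the same ends, averaged 115 ± 28.4 and 204 ± 44.3 CPM (SD, n = 3), with edgeR adjusted p of 0.183 and 0.152. Pax6os1 (XLOC_085706), in the islet transcription factor gene Pax6, measured 339 ± 24.2, 329 ± 10.03 and 311 ± 30.8 CPM in the 3 groups (SD, n = 3, adjusted p of 0.903 and 0.625), with 33.2% of its counts intronic.

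Of 33 ion channel and calcium genes, 10 hosted 17 intronic transcripts, 3 of them tested and none called. They are Gm10848, in the calcium channel subunit gene Cacnb2 (10.6 CPM on average), Gm43000, in Cacna2d1, another calcium channel subunit gene (7.63 CPM), and Gm20700, in the potassium channel partner gene Kcnip4 (3.11 CPM). Of 50 lipid genes, 1 hosted a member: Gm26764, in Sptlc2, which encodes a subunit of the enzyme that joins palmitoyl-CoA to serine. It measured 59.5, 76.5 and 99.2 CPM in control, 63.8, 55.3 and 61.2 CPM with palmitic acid and 47.5, 56.3 and 63.0 CPM with stearic acid (log2 changes −0.39 ± 0.19 and −0.50 ± 0.19, edgeR adjusted p of 0.248 and 0.0917). Of 41 genes of p53, repair and apoptosis, 3 hosted 6 members, and the 1 tested, Gm16116 in the tumour suppressor gene Wwox, had log2 changes of −0.01 ± 0.51 and −0.16 ± 0.55. The fibroblast list gave 1 undetected member, and the lists of granule, endoplasmic reticulum stress and inflammation genes and of marker genes of α, δ, PP, acinar, duct and endothelial cells and macrophages hosted none.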

How the data were processed

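Ribosomal RNA-depleted total RNA of 9 libraries was sequenced from a strand-specific kit. Per the submitters' processing notes, reads went through bcl2fastq 2.17.1.14, Trimmomatic 0.30, HISAT2 2.0.1 (mm10), HTSeq 0.6.1 and DESeq. No source names the assembler or the tool behind the estimates. The authors deposited expected counts (77.9% of them whole) and FPKM per transcript, and comparison tables with log2 fold changes and adjusted p-values, which are quoted only where named as theirs.

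Expected counts were rounded for transcripts, and for loci they were summed per gene identifier and then rounded. Both sets were filtered (filterByExpr), scaled by TMM and fitted with the quasi-likelihood test of edgeR 4.0.16 in R 4.3.3. All 9 libraries were fitted together (6 residual degrees of freedom, biological coefficient of variation 0.564 for transcripts and 0.204 for loci). P-values are two-sided and Benjamini-Hochberg adjusted over the whole table, and called means under 0.05. Errors of log2 changes are SE, and intervals 95%. CPM use TMM-scaled library sizes. Folds are ratios of mean CPM. The locus of the 2 transcripts not reported here was left out of locus counts. DESeq2 1.42.0 and other alternatives were run.

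Hosts and exons came from GENCODE release 21. Named are the 10 members of highest CPM, all calls (8 each way where over 16), up to 5 of smallest p where few passed, up to 3 per list, and extremes of exons, span and hosts. Members and lists were chosen with earlier results of these data known. Calls outside this rule (such as those in Smtn and Hhat), and isoforms of named loci, were named after their values were seen. Figures used matplotlib 3.10.9.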

Additional observations from a re-analysis of the deposited data

How the results depend on the processing

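Direction was followed for the calls named by the rule above and for the loci and transcripts named for their smallest p, and none changed direction. Other members named in the text, such as Gm26565, are not covered by this statement. Called loci ranged from 10 to 12 for palmitic acid and from 18 to 22 for stearic acid without 1 library, from 0 to 1 for stearic against palmitic acid, and were 6, 16 and 0 with an absolute log2 change above 1 also required. At an adjusted p under 0.01, 14 loci passed with stearic acid. The DESeq2 Wald test called 18 loci with stearic acid, 17 of them among the 26, and 13 with palmitic acid. Over all fits, among them that of intronic transcripts alone, 10 of the 26 stearic acid calls and 10 of the 13 palmitic acid calls passed every time. Stearic against palmitic acid had 1 locus with DESeq2, 1 with no filter and 1 without stearic acid replicate 2. Transcript calls were less firm: for palmitic acid (main count 1) 2 with DESeq2, 2 with no filter, and 0 at an adjusted p under 0.01, with DESeq2 size factors, with library size alone, with only the groups compared, and without any 1 library. For stearic acid (main count 4) they were 12 with DESeq2, 1 with library size alone, 1 with only the groups compared, 0 at an adjusted p under 0.01, and from 0 to 1 without 1 library. The summed share in control, palmitic and stearic acid was 3.45%, 3.09% and 3.54% with the most abundant lncRNA left out of the total, 3.19%, 3.24% and 3.49% of FPKM, and 1.45%, 1.27% and 1.28% without the most abundant intronic transcript, so the order of the 3 groups depends on the measure. The cause of these shifts was not tested. Deviations of same-numbered libraries had correlations from −0.042 to 0.083 for loci and −0.021 to 0.068 for transcripts. Those of differently numbered libraries ran from −0.064 to 0.068 and from −0.046 to 0.038. These values do not settle whether same-numbered libraries were handled together, which the labels do not state. With that number as a replicate block, 13, 24 and 0 loci and 0, 0 and 0 transcripts passed. The estimated spread was larger for transcripts than for loci, and the part of depth in this was not tested.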
